A study of Mus musculus with 12 samples.

Results

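The genes described here encode the enzymes that put methyl groups on histone lysines and arginines (writers), the enzymes that take them off (erasers) and core subunits those enzymes need. They are 49 mouse genes, 34 on the writer side and 15 erasers, found among the 55487 genes of the count table. They were chosen by name from a list of symbols, with earlier results of these data known. All 49 passed the filter on low counts and were tested together with 13581 genes in all. They were measured in im-TEC, a conditionally immortalized line of mouse kidney tubular epithelial cells that carries SV40 large T antigen. Cells were kept at 33 °C with interferon gamma and then for 7 days at 37 °C without it, which lowers large T activity, before the experiment; all 4 groups share this history and the antigen. The 4 groups of 3 libraries were a control, TGFβ at 10 ng/mL, 50 µM 5-amino-1-methylquinolinium (a small-molecule inhibitor of NNMT, below the inhibitor) and both agents together (the combined group), each for 48 h. Messenger RNA was read at its 3′ end (QuantSeq), so that counts do not scale with transcript length. NNMT, nicotinamide N-methyltransferase, spends the methyl donor S-adenosylmethionine, which the histone writers also use.

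Histone methylation marks are read by other proteins and go with different states of a gene: methylation of lysine 4 of histone H3 (H3K4) and of H3K36 with active genes, that of H3K27, laid down by Polycomb repressive complex 2 (PRC2), and of H3K9 with silent ones. Writers of the SET-domain family and DOT1L add methyl groups, while flavin-dependent and Jumonji-domain demethylases remove them, the latter with iron and alpha-ketoglutarate. TGFβ drives tubular cells toward a matrix-producing state, and PRC2 and the H3K9 enzymes have been studied in that setting. The counts below are transcript levels; the marks themselves and the enzymes' activities were not measured.

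Library totals in genes ran from 2584117 (TGFβ replicate 3) to 11866903 counts (TGFβ replicate 2), so that 3 counts in a library equalled 0.266 to 1.15 CPM, the counts scaled to a common library depth. The 49 genes together took 0.462 to 0.521% of the counts. The TGFβ libraries varied most among themselves: the biological coefficient of variation was 0.227 there, against 0.0657 in control, 0.0884 in the inhibitor group and 0.112 with both agents, and TGFβ replicate 2 had the lowest quality weight of the 12 libraries (0.146). All 8 TGFβ response markers rose with TGFβ. Of 12 tubular epithelial markers, *Epcam* and *Slc34a1* had no count in any library and *Cdh1* at most 3 counts in any; of the 9 tested, 2 rose and 4 fell with TGFβ. The sum of the 12 was 1884 to 2044 CPM in control and 702 to 1096 CPM with TGFβ, with opposite changes inside it: *Aqp1*, a water channel, went from 981, 990.1 and 1066 CPM in control to 35.0, 19.5 and 21.0 with TGFβ, and *Krt8*, a keratin, from 62.3, 62.5 and 63.2 to 212, 401 and 252. Of 6 fibroblast markers *Dpt*, *Lum* and *Pdgfra* were at 0 throughout, and the 6 summed to 4.16 to 8.80 CPM with TGFβ, above every library without it. The 1 tested, *Pdgfrb*, stood at 0.893, 0.242 and 0.403 CPM in control and 4.74, 3.72 and 8.80 with TGFβ, and rose with TGFβ (log2 change 3.34 ± 0.60 SE, adjusted p = 2.39e-04) and in inhibitor-treated cells (log2 change 2.56 ± 0.66 SE, adjusted p = 0.00489); its part in the results below was not tested. The 5 immune markers summed to at most 8.19 CPM and 4 endothelial markers to at most 0.437 CPM.

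TGFβ alone, compared with control, changed 21 of the 49 genes, 10 upward and 11 downward, at a Benjamini-Hochberg adjusted p below 0.05 in edgeR's quasi-likelihood test. That is 42.9% of them, where 36.5% of all tested genes were called (19.4% up and 17.1% down), so the share called was close to that of the genome as a whole. The median log2 change of the 49 was −0.0089, against 0.017 over all genes, and their median absolute change 0.29 against 0.37. Called and not called refer to this test throughout, unless another is named. Calls that other settings end or add are given with each gene or comparison, and a replicate block is treated at the end. The rises were in PRC2 (*Ezh2*, *Suz12*, *Eed*), in the H3K9 writers *Suv39h1* and *Suv39h2*, and in *Nsd2*, *Setd7*, *Smyd3*, *Prmt5* and *Jmjd1c*. The falls were in *Ezh1*, in the large H3K4 writers *Kmt2b*, *Kmt2c*, *Kmt2e* and *Setd1b*, in *Nsd1*, *Kmt5b* and *Kmt5c*, and in the H3K9 erasers *Kdm3a*, *Kdm4b* and *Kdm7a*. In 4 genes the change was 2-fold or more (*Ezh2* and *Suv39h2* up, *Ezh1* and *Kdm7a* down). By side, 17 of 34 writers were called (9 up, 8 down) and 4 of 15 erasers (1 up, 3 down).

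The same question asked in inhibitor-treated cells, the combined group against the inhibitor alone, contrasts 6 other libraries within the same fit of all 12. There 20 of the 49 were called, 11 up and 9 down (40.8%; 36.3% of all genes, 18.0% up and 18.3% down). Of these, 14 had also been called with TGFβ alone, which is 66.7% of the first set and 70.0% of the second, and all 14 had the same direction (7 up: *Ezh2*, *Eed*, *Suv39h1*, *Suv39h2*, *Nsd2*, *Setd7*, *Smyd3*; 7 down: *Ezh1*, *Kmt2c*, *Kmt2e*, *Kmt5b*, *Kdm3a*, *Kdm4b*, *Kdm7a*). Across the 49 genes the log2 changes of both comparisons had r = 0.889 and the same sign in 46. Genes are not independent replicates, so this describes the 12 libraries. Neither this nor the overlap was computed over all genes, so neither can be called particular to these 49. All 12 libraries share the filter, scaling and spread of the fit, so neither set of calls rests on 6 libraries alone. In a bulk library, fewer cells of one kind and less RNA per cell cannot be told apart for any gene below. The labels do not say whether the 3 libraries of a group are separate cultures; the p-values therefore rest on the spread between these samples, which may be technical.

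**Figure D1:**
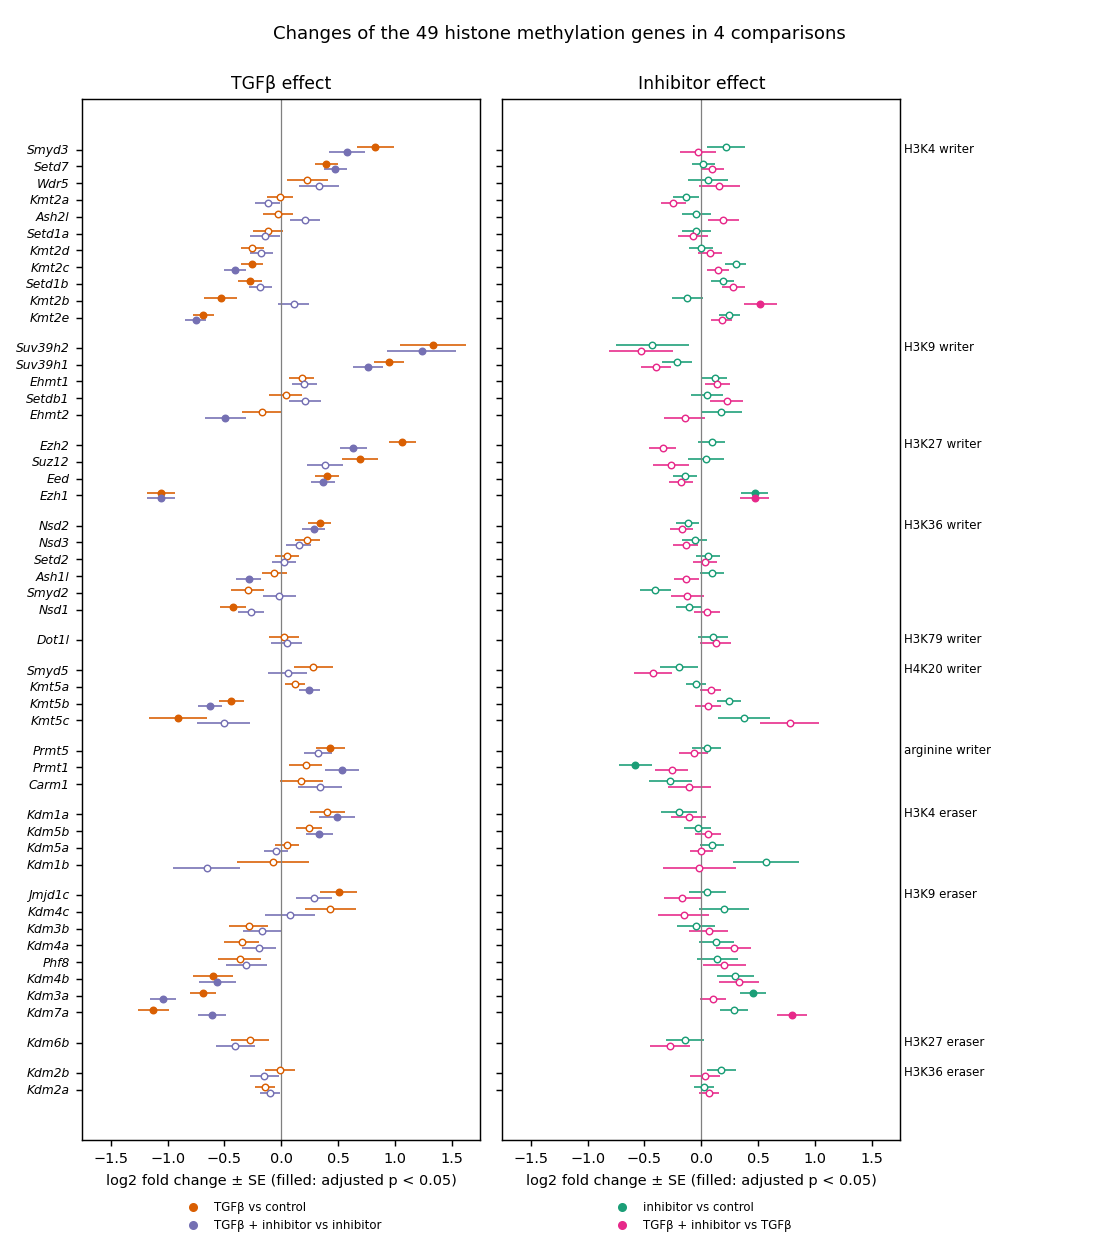
Log2 fold changes (x axis, points, with bars of ± 1 SE) of the 49 genes (y axis, by mark), for TGFβ at left (against control, orange, and combined against inhibitor, purple) and for the inhibitor at right (against control, green, and combined against TGFβ, pink); filled points have an adjusted p below 0.05. At left 21 orange and 20 purple points are filled, and the 14 genes filled in both lie on the same side of 0; at right 3 points of each colour are filled.

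PRC2 places methyl groups on H3K27 through 1 of 2 alternative catalytic subunits, EZH2, which is typical of dividing cells, and EZH1, which prevails in resting ones; SUZ12 is the scaffold and EED reads the product. *Ezh2* (ENSMUSG00000029687) stood at 157, 156 and 161 CPM in the control libraries, 155, 176 and 175 with the inhibitor, 295, 398 and 296 with TGFβ and 254, 292 and 238 with both agents. Every TGFβ library was above every control library, and every combined library above every inhibitor library. The rise with TGFβ was 2.09-fold (log2 change 1.06 ± 0.12 SE, adjusted p = 1.14e-06), and in inhibitor-treated cells 1.55-fold (log2 change 0.63 ± 0.12 SE, adjusted p = 3.19e-04). The combined libraries all lay below the TGFβ libraries, but that difference was not called (log2 change −0.34 ± 0.12 SE, adjusted p = 0.0718). *Ezh2* was called lower for combined against TGFβ with scaling by library size alone, and without any 1 of TGFβ replicates 1 and 3 (adjusted p = 0.0285 to 0.0446).

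The *Ezh2* row of the deposited table had an irregularity: of its 11 counts of 1000 or more, 5 were exact multiples of 100 (1600 in control replicate 3, 1600 in inhibitor replicate 3, 4500 in TGFβ replicate 2, 2600 and 1800 in combined replicates 2 and 3). Among all genes 203 of 21066 such counts were, or 0.964%; no other gene had more than 2, and none of the other members' 160 such counts was one. What gave the *Ezh2* row these values was not tested. Fitted without the 5 libraries, a check added after the counts were seen, *Ezh2* rose by 0.91 ± 0.092 with TGFβ (log2, SE; adjusted p = 1.89e-08 over 14200 genes) and by 0.63 ± 0.11 in inhibitor-treated cells (adjusted p = 5.48e-05); that fit has 1 combined library, assumed to vary like the rest. In that fit the *Ezh2* difference of combined against TGFβ was −0.21 on the log2 scale, smaller in size than the −0.34 with all 12 libraries. With *Ezh2* set aside altogether, 20 of the other 48 genes were called with TGFβ alone and 19 in inhibitor-treated cells.

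*Ezh1* (ENSMUSG00000006920) moved the other way, from 54.0, 51.0 and 51.6 CPM in control to 24.3, 28.0 and 21.4 with TGFβ, and from 69.0, 71.2 and 76.7 with the inhibitor to 30.4, 35.6 and 38.0 with both. The 4 groups did not overlap: inhibitor was highest, then control, combined and TGFβ. It fell 2.08-fold with TGFβ (log2 change −1.06 ± 0.13 SE, adjusted p = 2.67e-06) and 2.08-fold in inhibitor-treated cells (log2 change −1.06 ± 0.12 SE, adjusted p = 1.30e-06). As a share of the *Ezh1* and *Ezh2* counts together, *Ezh1* made up 25.6, 24.6 and 24.2% in control, 30.8, 28.8 and 30.5% with the inhibitor, 7.61, 6.56 and 6.76% with TGFβ and 10.7, 10.9 and 13.8% with both. The group means were 24.8 ± 0.679%, 30.1 ± 1.07%, 6.98 ± 0.561% and 11.8 ± 1.74% (SD, n = 3 each), and again no groups overlapped; each of the 4 comparisons gave p = 0.1 in an exact two-sided permutation test, which groups of 3 cannot go below. In the 7 libraries without a round *Ezh2* count the share was 24.6 and 25.6% in control, 28.8 and 30.8% with the inhibitor, 6.76 and 7.61% with TGFβ and 10.7% with both. The share compares groups and says nothing of the amounts of the enzymes, since each transcript's 3′ end may be captured with its own efficiency.

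*Suz12* stood at 89.4, 90.2 and 87.3 CPM in the control libraries, 95.8, 96.1 and 83.0 with the inhibitor, 139, 188 and 99.5 with TGFβ and 130.2, 113 and 115 with both agents. TGFβ replicate 2 was the highest library and TGFβ replicate 3 the lowest of its group, though still above all control libraries. The rise with TGFβ was 1.62-fold (log2 change 0.69 ± 0.16 SE, adjusted p = 0.0024); in inhibitor-treated cells the difference was 0.38 ± 0.16 (adjusted p = 0.0679), which is not a call, although all 3 combined libraries were above the inhibitor libraries. *Suz12* was called higher in inhibitor-treated cells in limma voom with quality weights, with no filter on low counts and with only the 2 groups compared in the fit, and without any 1 of TGFβ replicates 2 and 3 (adjusted p = 0.00143 to 0.00879). *Eed* stood at 60.8, 64.3 and 57.4 CPM in the control libraries, 52.4, 57.6 and 55.5 with the inhibitor, 81.6, 75.3 and 85.7 with TGFβ and 73.8, 74.7 and 65.1 with both agents. TGFβ libraries lay above control and combined libraries above inhibitor, without overlap. The rises were 1.32-fold (log2 change 0.40 ± 0.11 SE, adjusted p = 0.00528) and 1.29-fold (log2 change 0.37 ± 0.10 SE, adjusted p = 0.00952). The second call was lost with counts thinned to the shallowest library (adjusted p = 0.0791).

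Markers of DNA replication and cell division, a list of 20 genes chosen with earlier results of these data known, also changed. All 20 rose with TGFβ, and 17 rose and none fell in inhibitor-treated cells. With the inhibitor 3 fell against control and 9 against TGFβ. Over all genes 19.4% were called up with TGFβ and 18.0% in inhibitor-treated cells. Called down with the inhibitor were 5.80% against control and 6.97% against TGFβ. The summed level of the 20 markers was 1791 to 1854 CPM in control, 1384 to 1489 with the inhibitor, 3184 to 3218 with TGFβ and 2286 to 2421 with both. Among them *Mcm3*, of the replicative helicase, rose by 1.19 and *Rrm1*, of ribonucleotide reductase, by 0.88 on the log2 scale with TGFβ. The part of these genes in the rise of *Ezh2*, *Suz12*, *Eed*, *Suv39h1* and *Suv39h2* was not tested.

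**Figure D2:**
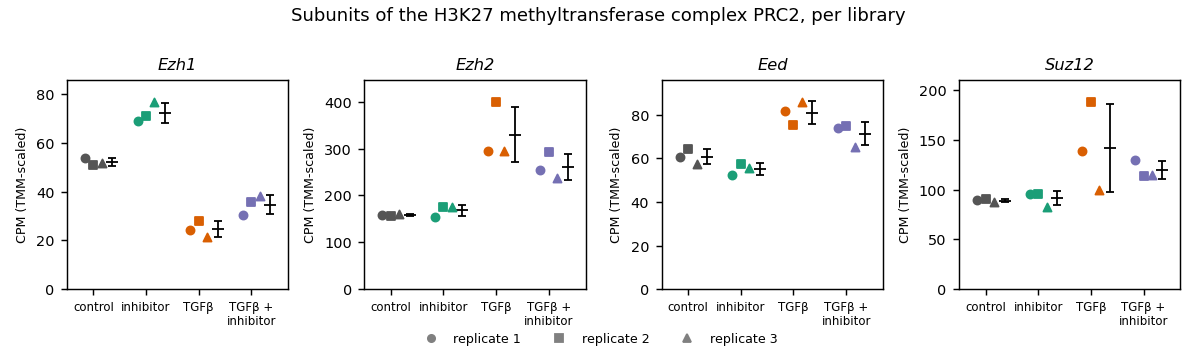
TMM-scaled CPM (y axis, from 0) of the 4 core PRC2 genes in each of the 12 libraries, by group (x axis), with markers for the replicate and a bar for the group mean ± SD (n = 3). *Ezh2* is above control in every TGFβ library and *Ezh1* below it in every one; the highest *Ezh2* point, TGFβ replicate 2, is one of the 5 round counts.

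The promoter windows of *Ezh2*, *Suz12* and *Ezh1* are shown because these subunits of 1 complex moved in opposite directions. Each runs from 250 bases before to 50 after a RefSeq transcript start (GRCm38.p6), 5′ to 3′ on the gene's strand; capitals mark a match to the E2F motif (TTTGGCGC, TTTCCCGC, TTTCGCGC or TTTGCCGC, either strand), a description and not a binding site.
Ezh2 (chr6:47594981-47595280, minus strand): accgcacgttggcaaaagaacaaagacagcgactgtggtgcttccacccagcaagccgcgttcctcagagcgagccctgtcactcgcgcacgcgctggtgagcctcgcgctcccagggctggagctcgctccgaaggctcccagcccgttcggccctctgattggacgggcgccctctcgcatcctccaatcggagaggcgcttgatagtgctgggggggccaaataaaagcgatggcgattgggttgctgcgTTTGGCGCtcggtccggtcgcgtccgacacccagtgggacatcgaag
Suz12 (chr11:79992856-79993155, plus strand): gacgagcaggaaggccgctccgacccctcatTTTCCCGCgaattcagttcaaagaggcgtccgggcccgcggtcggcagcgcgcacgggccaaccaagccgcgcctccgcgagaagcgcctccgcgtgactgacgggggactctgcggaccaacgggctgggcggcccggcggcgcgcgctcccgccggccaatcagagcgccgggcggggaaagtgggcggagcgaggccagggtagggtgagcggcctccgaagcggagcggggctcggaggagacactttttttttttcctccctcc
Ezh1 (chr11:101226414-101226713, minus strand): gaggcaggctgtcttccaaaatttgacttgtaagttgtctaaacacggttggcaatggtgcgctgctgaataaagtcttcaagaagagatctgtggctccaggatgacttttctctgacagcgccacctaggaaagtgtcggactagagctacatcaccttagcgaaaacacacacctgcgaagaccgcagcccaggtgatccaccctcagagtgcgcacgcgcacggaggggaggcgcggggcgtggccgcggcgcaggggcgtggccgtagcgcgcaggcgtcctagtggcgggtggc

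The *Ezh2* and *Suz12* windows each held 1 match, and the *Ezh1* window held none of these letters. The window of *Eed*, the core subunit that also rose with TGFβ, held no match either. No window of *Setd7*, *Prmt5*, *Jmjd1c* or *Suv39h2*, which rose too, held a match. The set of member windows left out a chromosome that the list of all promoters kept. Of the 34 members with a window in that set (46 windows, none for 15 members), 4 held the motif. These were *Ezh2*, *Suz12* and *Suv39h1*, which rose with TGFβ, and *Kmt5c*, which fell. Over all promoters in the RefSeq table, 744 of 32851 windows of the same length did (2.26%). That share counts windows, whereas the 4 of 34 counts genes, some with several windows, so the shares are not alike.

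Accessory subunits steer PRC2 to its targets. Of 8 listed, 6 were tested; with TGFβ 2 rose and 2 fell, and in inhibitor-treated cells 1 rose and 2 fell. *Mtf2*, a Polycomb-like protein, rose by 0.49 ± 0.11 (adjusted p = 0.00175) with TGFβ, while *Phf1*, of the same family, fell (−0.87 ± 0.17, adjusted p = 4.94e-04), as did *Jarid2*, which helps recruit the complex (−0.62 ± 0.15, adjusted p = 0.00284). In inhibitor-treated cells the changes were 0.30 ± 0.11 (adjusted p = 0.0409), −0.59 ± 0.16 (adjusted p = 0.00791) and −0.61 ± 0.14 (adjusted p = 0.00201). The *Mtf2* call in inhibitor-treated cells was lost on leaving out any 1 of control replicates 1, 2 and 3, inhibitor replicates 1, 2 and 3 and combined replicates 1 and 2 (adjusted p = 0.057 to 0.122), and with scaling by library size alone and with counts thinned to the shallowest library (adjusted p = 0.0684 to 0.146). The *Phf1* call there was lost on leaving out combined replicate 2 (adjusted p = 0.0526). The *Jarid2* call there was lost with counts thinned to the shallowest library (adjusted p = 0.0604). Across the list, calls in inhibitor-treated cells went from 3 to 1 without combined replicate 2 or with counts thinned to the shallowest library.

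PRC1, which binds the H3K27 mark and ubiquitinates histone H2A, was tested through 18 subunits, of which 3 rose and 5 fell with TGFβ, and 5 rose and 6 fell in inhibitor-treated cells. *Cbx7*, a reader of the mark, fell 3.07-fold with TGFβ (log2 change −1.62 ± 0.21 SE, adjusted p = 7.35e-06). In inhibitor-treated cells it fell 2.72-fold (log2 change −1.45 ± 0.19 SE, adjusted p = 1.03e-05). *Pcgf2*, a PRC1 ring-finger subunit, had log2 changes of −0.72 ± 0.13 (adjusted p = 2.21e-04) with TGFβ and −0.64 ± 0.12 (adjusted p = 5.34e-04) in inhibitor-treated cells. The 11 calls in inhibitor-treated cells became 4 without inhibitor replicate 3; 5 without combined replicate 2; 6 with counts thinned to the shallowest library; 7 without any 1 of inhibitor replicate 1 and combined replicates 1 and 3 or with scaling by library size alone.

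SUV39H1 and SUV39H2 trimethylate H3K9 in constitutive heterochromatin, such as that around centromeres. *Suv39h1* (ENSMUSG00000039231) stood at 24.1, 26.5 and 24.7 CPM in the control libraries, 22.7, 23.4 and 18.9 with the inhibitor, 46.9, 54.8 and 41.7 with TGFβ and 38.2, 35.5 and 36.4 with both agents. All TGFβ libraries were above all control libraries; with the inhibitor it was below control, and with both below TGFβ, in every library. It rose 1.93-fold with TGFβ (log2 change 0.95 ± 0.13 SE, adjusted p = 1.62e-05) and 1.70-fold in inhibitor-treated cells (log2 change 0.76 ± 0.13 SE, adjusted p = 1.67e-04), whereas neither inhibitor comparison was a call (−0.21 ± 0.13, adjusted p = 0.395 against control and −0.40 ± 0.13, adjusted p = 0.0573 against TGFβ). *Suv39h1* was called lower for combined against TGFβ with scaling by library size alone and in DESeq2, and without TGFβ replicate 3 (adjusted p = 0.0242 to 0.0373). *Suv39h2* was scarce, at 5.02, 2.66 and 3.83 CPM in the control libraries, 3.19, 3.43 and 1.97 with the inhibitor, 7.32, 12.4 and 9.18 with TGFβ and 6.25, 6.07 and 7.92 with both agents. Each TGFβ library was above each control library, and each combined library above each inhibitor library. Its rises were 2.52-fold (log2 change 1.33 ± 0.29 SE, adjusted p = 0.00147) and 2.35-fold (log2 change 1.23 ± 0.31 SE, adjusted p = 0.00378), the largest log2 changes among the 49 genes in either TGFβ comparison. The 3′ ends of both genes lie within a gene on the opposite strand in the GENCODE M21 annotation (*Gm14820* and *Dclre1c*), and the strand setting of the counting is not stated, so some of their reads may be shared.

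The *Suv39h1* promoter window that holds a motif match is shown for comparison with *Ezh2* and *Suz12* (same build, window and capitals).
Suv39h1 (chrX:8074312-8074611, minus strand): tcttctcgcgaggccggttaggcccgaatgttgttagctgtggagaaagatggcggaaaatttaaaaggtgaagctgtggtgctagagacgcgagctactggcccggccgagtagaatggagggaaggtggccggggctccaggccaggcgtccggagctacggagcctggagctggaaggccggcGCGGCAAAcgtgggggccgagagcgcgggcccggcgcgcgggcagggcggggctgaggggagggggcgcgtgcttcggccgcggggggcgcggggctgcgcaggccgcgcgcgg

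Its match is on the reverse strand; a second RefSeq start of this gene and the window of *Suv39h2* held no match.

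G9a (*Ehmt2*) and its partner GLP (*Ehmt1*) mono- and dimethylate H3K9 in euchromatin. *Ehmt2* stood at 79.7, 78.9 and 80.0 CPM in the control libraries, 96.3, 91.2 and 82.2 with the inhibitor, 70.7, 89.9 and 46.3 with TGFβ and 61.7, 52.5 and 77.9 with both agents. The combined libraries were all below the inhibitor libraries, while the TGFβ libraries spread on both sides of the control level. It was called for the combined group against the inhibitor (log2 change −0.49 ± 0.18 SE, adjusted p = 0.0415; with TGFβ −0.17 ± 0.18, adjusted p = 0.5). This call for *Ehmt2* was lost on leaving out any 1 of control replicates 1, 2 and 3, inhibitor replicates 1, 2 and 3, TGFβ replicate 1 and combined replicates 1 and 2 (adjusted p = 0.0503 to 0.158), and with counts thinned to the shallowest library (adjusted p = 0.116). *Ehmt1* was not called in any comparison by edgeR (0.18 ± 0.11, adjusted p = 0.221 with TGFβ), nor was *Setdb1*, the H3K9 writer of retroelement silencing (0.038 ± 0.15, adjusted p = 0.865). *Ehmt1* was called higher with TGFβ alone in limma voom with quality weights, and without TGFβ replicate 2 (adjusted p = 0.00955 to 0.0152). *Ehmt1* was called higher in inhibitor-treated cells in limma voom with quality weights, and without TGFβ replicate 2 (adjusted p = 0.0266 to 0.0268).

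Readers and partners of H3K9 methylation were listed as 11 genes, 10 of them tested; 5 rose and 1 fell with TGFβ, and 4 rose in inhibitor-treated cells. *Uhrf1*, which couples this mark to DNA methylation during replication, rose 2.24-fold with TGFβ (log2 change 1.17 ± 0.12 SE, adjusted p = 2.88e-07) and 1.86-fold in inhibitor-treated cells (log2 change 0.89 ± 0.12 SE, adjusted p = 8.44e-06). It was lower with the inhibitor than in control (−0.45 ± 0.12, adjusted p = 0.0249) and lower with both agents than with TGFβ (−0.72 ± 0.11, adjusted p = 4.67e-04). The call against control was lost on leaving out any 1 of control replicates 1 and 2 and inhibitor replicates 1, 2 and 3 (adjusted p = 0.0517 to 0.11), and with no filter on low counts (adjusted p = 0.0506). *Mphosph8*, a HUSH complex subunit, rose by 0.54 ± 0.11 (adjusted p = 5.14e-04) with TGFβ. The 6 calls with TGFβ became 3 without any 1 of control replicates 1 and 2 or with only the 2 groups compared in the fit.

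Of 8 H3K9 erasers, *Kdm3a*, *Kdm4b* and *Kdm7a* fell with TGFβ and *Jmjd1c* rose; the 3 falls were called again in inhibitor-treated cells. *Kdm7a* (ENSMUSG00000042599), a Jumonji demethylase of H3K9 and H3K27, stood at 47.7, 46.8 and 45.1 CPM in the control libraries, 55.8, 56.3 and 57.9 with the inhibitor, 23.6, 19.3 and 21.0 with TGFβ and 41.3, 30.7 and 39.4 with both agents. No 2 of the 4 groups overlapped: inhibitor was highest, control next, then combined, then TGFβ. It fell 2.18-fold with TGFβ (log2 change −1.12 ± 0.13 SE, adjusted p = 2.51e-06), the largest fall among the 49, and 1.53-fold in inhibitor-treated cells (log2 change −0.61 ± 0.13 SE, adjusted p = 8.02e-04). Its 3′ end lies within *4930599N23Rik*, annotated on the other strand. *Kdm3a*, which removes mono- and dimethyl marks and responds to hypoxia, stood at 72.2, 62.0 and 65.6 CPM in the control libraries, 91.2, 90.3 and 92.7 with the inhibitor, 43.8, 35.2 and 46.3 with TGFβ and 43.9, 42.9 and 46.2 with both agents. TGFβ and combined libraries lay together below control, and inhibitor libraries above it. It fell 1.61-fold with TGFβ (log2 change −0.69 ± 0.12 SE, adjusted p = 1.36e-04) and 2.06-fold in inhibitor-treated cells (log2 change −1.04 ± 0.11 SE, adjusted p = 7.44e-07).

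*Kdm4b*, a demethylase of trimethylated H3K9 and H3K36, stood at 16.6, 17.2 and 15.3 CPM in the control libraries, 21.5, 18.9 and 20.0 with the inhibitor, 10.6, 12.7 and 7.65 with TGFβ and 13.2, 13.0 and 14.7 with both agents. TGFβ was below control and combined below inhibitor in all libraries. The falls were 1.52-fold (log2 change −0.60 ± 0.17 SE, adjusted p = 0.0105) and 1.48-fold (log2 change −0.56 ± 0.16 SE, adjusted p = 0.0114). The second call was lost with counts thinned to the shallowest library (adjusted p = 0.0525). *Jmjd1c*, a relative of *Kdm3a* whose demethylase activity is debated, stood at 47.9, 51.2 and 46.7 CPM in the control libraries, 53.4, 52.1 and 45.5 with the inhibitor, 54.9, 93.5 and 55.1 with TGFβ and 62.9, 61.8 and 59.4 with both agents. TGFβ replicate 2 was far above the other TGFβ libraries, which were just above control. The rise was 1.42-fold (log2 change 0.50 ± 0.16 SE, adjusted p = 0.0205). The call was lost on leaving out any 1 of control replicates 1 and 3 and TGFβ replicate 2 (adjusted p = 0.0636 to 0.257). It was also lost in limma voom with quality weights and with only the 2 groups compared in the fit (adjusted p = 0.0844 to 0.0985). In inhibitor-treated cells *Jmjd1c* was called higher in limma voom with quality weights and in the 2-group fit (adjusted p = 0.0297 to 0.0351). Leaving out TGFβ replicate 2 also gave that call (adjusted p = 0.0127). *Kdm3b*, *Kdm4a*, *Kdm4c* and *Phf8* were not called in any comparison by edgeR, with TGFβ log2 changes of −0.29 ± 0.17 (adjusted p = 0.207), −0.35 ± 0.15 (adjusted p = 0.0866), 0.43 ± 0.23 (adjusted p = 0.15) and −0.37 ± 0.19 (adjusted p = 0.134). *Kdm4a* was called lower with TGFβ alone with no filter on low counts, and without any 1 of TGFβ replicates 1 and 3 (adjusted p = 0.0128 to 0.0388). *Phf8* was called lower with TGFβ alone without TGFβ replicate 1 (adjusted p = 0.00881).

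**Figure D3:**
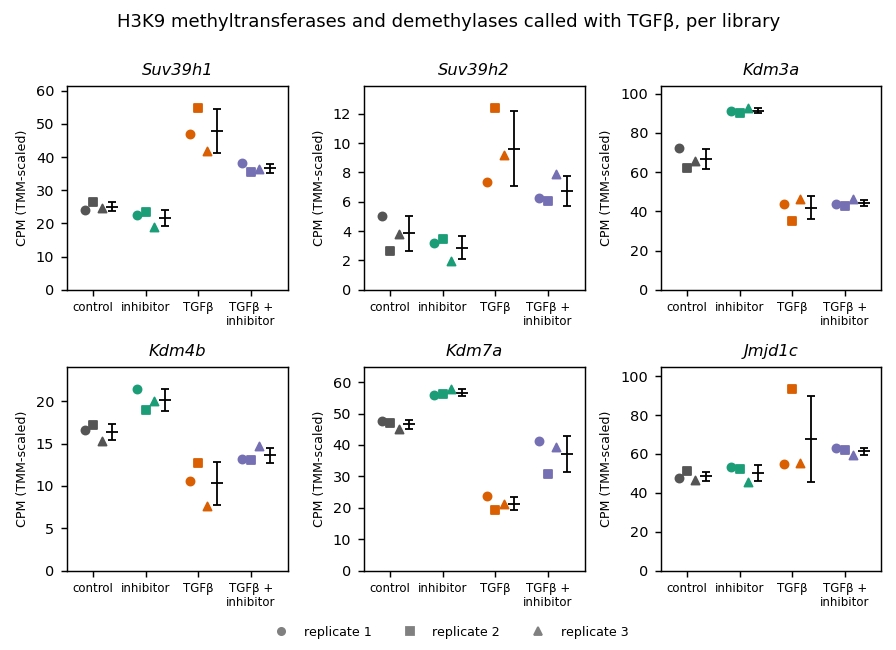
TMM-scaled CPM (y axis, from 0) of the H3K9 writers *Suv39h1* and *Suv39h2* and the H3K9 erasers *Kdm3a*, *Kdm4b*, *Kdm7a* and *Jmjd1c* in each library, by group (x axis), with a marker per replicate and a bar for the mean ± SD (n = 3). Both writers are higher and *Kdm3a*, *Kdm4b* and *Kdm7a* lower in every TGFβ library than in any control library.

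H3K4 is methylated at promoters and enhancers by the KMT2 and SETD1 enzymes within COMPASS-type complexes, which share WDR5, ASH2L and other subunits. Among 11 H3K4 writers and subunits, 4 fell with TGFβ, all of them large SET-domain proteins, and *Setd7* and *Smyd3*, which also methylate other proteins, rose; in inhibitor-treated cells 2 rose and 2 fell. *Kmt2e* (ENSMUSG00000029004), whose SET domain has no well-established activity on histones, stood at 536, 509.7 and 552 CPM in the control libraries, 613, 629.6 and 655 with the inhibitor, 319, 352 and 322 with TGFβ and 348, 413 and 365 with both agents. TGFβ libraries were below control and combined below inhibitor, without overlap. It fell 1.61-fold (log2 change −0.69 ± 0.092 SE, adjusted p = 1.12e-05) and 1.68-fold (log2 change −0.75 ± 0.092 SE, adjusted p = 3.09e-06). Its 3′ end overlaps *Srpk2* on the opposite strand.

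*Kmt2b*, which acts at promoters, stood at 31.6, 31.0 and 36.1 CPM in the control libraries, 28.1, 28.5 and 34.1 with the inhibitor, 24.7, 18.9 and 26.0 with TGFβ and 32.1, 33.5 and 32.2 with both agents. The TGFβ libraries were below all others, while the combined libraries lay among the control libraries. It fell 1.45-fold with TGFβ (log2 change −0.53 ± 0.14 SE, adjusted p = 0.00687), and the comparison in inhibitor-treated cells gave 0.11 ± 0.14 (adjusted p = 0.578). *Kmt2c*, an enhancer enzyme, stood at 137, 156 and 161 CPM in the control libraries, 189, 184 and 186 with the inhibitor, 116, 140.4 and 123 with TGFβ and 138, 144 and 140.1 with both agents. TGFβ replicate 2 overlapped the control libraries, whereas combined was below inhibitor throughout. Its falls were 1.19-fold (log2 change −0.26 ± 0.098 SE, adjusted p = 0.0475) and 1.33-fold (log2 change −0.41 ± 0.097 SE, adjusted p = 0.00266). The first call was lost on leaving out any 1 of control replicates 2 and 3 and TGFβ replicates 1 and 3 (adjusted p = 0.0833 to 0.181), and with no filter on low counts, with only the 2 groups compared in the fit and with counts thinned to the shallowest library (adjusted p = 0.0724 to 0.119). The second was lost with counts thinned to the shallowest library (adjusted p = 0.0644).

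*Setd1b*, a COMPASS enzyme, stood at 111, 103 and 115 CPM in the control libraries, 123, 123 and 129 with the inhibitor, 100.3, 78.3 and 93.7 with TGFβ and 109, 109.9 and 111 with both agents. TGFβ libraries were below control, with replicate 2 the lowest. It fell 1.21-fold with TGFβ (log2 change −0.28 ± 0.10 SE, adjusted p = 0.0421), against −0.18 ± 0.10 (adjusted p = 0.167) in inhibitor-treated cells. The call was lost on leaving out any 1 of control replicates 1 and 3 and TGFβ replicate 2 (adjusted p = 0.102 to 0.151), and in limma voom with quality weights, with no filter on low counts, with only the 2 groups compared in the fit and with counts thinned to the shallowest library (adjusted p = 0.0629 to 0.207). Without TGFβ replicate 1, *Setd1b* was called higher for combined against TGFβ (adjusted p = 0.0396). The *Setd1b* 3′ end lies within *Gm26745* on the opposite strand. *Smyd3* stood at 17.4, 18.5 and 20.6 CPM in the control libraries, 21.6, 20.5 and 23.7 with the inhibitor, 34.5, 36.7 and 27.2 with TGFβ and 32.9, 39.7 and 25.5 with both agents. Both TGFβ-treated groups were above both others in all libraries. It rose 1.77-fold (log2 change 0.83 ± 0.16 SE, adjusted p = 6.09e-04) and 1.49-fold (log2 change 0.58 ± 0.16 SE, adjusted p = 0.0083). The second call was lost on leaving out combined replicate 2 (adjusted p = 0.0544).

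*Setd7*, an H3K4 monomethyltransferase, stood at 147, 154 and 158 CPM in the control libraries, 159.9, 147 and 159 with the inhibitor, 176, 227 and 200.1 with TGFβ and 225, 216 and 204 with both agents. Again the TGFβ-treated groups were above the other groups without overlap. The rises were 1.31-fold (log2 change 0.39 ± 0.10 SE, adjusted p = 0.00474) and 1.39-fold (log2 change 0.47 ± 0.10 SE, adjusted p = 0.00109). *Kmt2a*, *Kmt2d*, *Setd1a*, *Ash2l* and *Wdr5* were called in no comparison by edgeR; *Kmt2d* came nearest with TGFβ (−0.26 ± 0.10, adjusted p = 0.0609). *Kmt2d* was called lower with TGFβ alone with DESeq2 size factors, with scaling by library size alone and in DESeq2, and without any 1 of TGFβ replicate 1 and combined replicate 2 (adjusted p = 0.0181 to 0.0453). *Wdr5* was called higher with TGFβ alone in limma voom with quality weights, and without TGFβ replicate 2 (adjusted p = 0.00296 to 0.0137). *Wdr5* was called higher in inhibitor-treated cells in limma voom with quality weights, with no filter on low counts and with only the 2 groups compared in the fit, and without TGFβ replicate 2 (adjusted p = 0.00768 to 0.0426). *Kmt2a* was called lower for combined against TGFβ without TGFβ replicate 3 (adjusted p = 0.0287). Of 9 other COMPASS subunits tested, 2 rose in each TGFβ comparison and none fell; *Psip1*, which tethers KMT2 complexes to chromatin, rose by 0.46 ± 0.092 (adjusted p = 6.57e-04) and 0.40 ± 0.091 (adjusted p = 0.00215), and the host cell factor *Hcfc1* by 0.27 ± 0.099 (adjusted p = 0.039) and 0.28 ± 0.098 (adjusted p = 0.0302). The *Hcfc1* call with TGFβ was lost on leaving out any 1 of control replicates 1, 2 and 3, inhibitor replicates 1, 2 and 3, TGFβ replicate 1 and combined replicates 1, 2 and 3 (adjusted p = 0.0557 to 0.176), and with DESeq2 size factors, with scaling by library size alone, in DESeq2, with no filter on low counts and with only the 2 groups compared in the fit (adjusted p = 0.0525 to 0.159). The *Hcfc1* call in inhibitor-treated cells was lost on leaving out any 1 of inhibitor replicates 1 and 2 and combined replicates 1, 2 and 3 (adjusted p = 0.0511 to 0.144), and with scaling by library size alone, with no filter on low counts and with counts thinned to the shallowest library (adjusted p = 0.062 to 0.134).

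Of 4 H3K4 erasers none was called with TGFβ alone by edgeR, and *Kdm1a* and *Kdm5b* rose in inhibitor-treated cells. *Kdm1a*, which encodes the flavin-dependent demethylase LSD1, stood at 80.6, 72.3 and 60.3 CPM in the control libraries, 67.1, 65.9 and 53.2 with the inhibitor, 88.8, 118 and 70.8 with TGFβ and 91.6, 80.6 and 89.0 with both agents. Combined libraries were above inhibitor libraries, while TGFβ libraries overlapped control. The rise was 1.40-fold (log2 change 0.49 ± 0.16 SE, adjusted p = 0.0203), against 0.40 ± 0.16 (adjusted p = 0.0514) with TGFβ alone. This call for *Kdm1a* was lost on leaving out any 1 of inhibitor replicate 3 and combined replicate 1 (adjusted p = 0.0558 to 0.0789). *Kdm1a* was called higher with TGFβ alone in limma voom with quality weights, with no filter on low counts and with counts thinned to the shallowest library, and without any 1 of control replicate 1 and TGFβ replicate 3 (adjusted p = 0.00488 to 0.0496). The *Kdm1a* 3′ end lies within *Luzp1* on the opposite strand. *Kdm5b*, a Jumonji demethylase of trimethylated H3K4, stood at 106, 102 and 106 CPM in the control libraries, 109.7, 94.4 and 102 with the inhibitor, 111, 149.9 and 108 with TGFβ and 124, 134 and 128 with both agents. The combined libraries were above the inhibitor libraries, and the TGFβ libraries above control. It rose 1.26-fold in inhibitor-treated cells (log2 change 0.33 ± 0.12 SE, adjusted p = 0.0301), against 0.24 ± 0.12 (adjusted p = 0.112) with TGFβ alone. This call for *Kdm5b* was lost on leaving out any 1 of inhibitor replicates 2 and 3 and combined replicate 2 (adjusted p = 0.0519 to 0.0991). *Kdm5b* was called higher with TGFβ alone without TGFβ replicate 3 (adjusted p = 0.0343). *Kdm1b* was called lower in inhibitor-treated cells without inhibitor replicate 2 (adjusted p = 0.0436).

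Partners of LSD1 in its corepressor complexes were 9 tested genes, of which 1 rose and 4 fell in each TGFβ comparison. *Hdac2*, the deacetylase of the complex, rose (0.42 ± 0.11, adjusted p = 0.00556 and 0.46 ± 0.11, adjusted p = 0.0026), while the corepressor *Rcor3* (−0.71 ± 0.14, adjusted p = 7.49e-04 and −0.85 ± 0.14, adjusted p = 8.24e-05) fell.

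H3K36 is dimethylated by the NSD enzymes and ASH1L and trimethylated along gene bodies by SETD2. *Nsd1* stood at 81.7, 81.0 and 88.6 CPM in the control libraries, 79.1, 75.8 and 78.5 with the inhibitor, 57.5, 68.7 and 60.5 with TGFβ and 55.1, 69.1 and 69.7 with both agents. All TGFβ-treated libraries were below all libraries without TGFβ. It fell 1.34-fold with TGFβ (log2 change −0.42 ± 0.11 SE, adjusted p = 0.00664), with −0.27 ± 0.11 (adjusted p = 0.0717) in inhibitor-treated cells. *Nsd1* was called lower in inhibitor-treated cells with scaling by library size alone, in limma voom with quality weights and with only the 2 groups compared in the fit, and without TGFβ replicate 2 (adjusted p = 0.0182 to 0.0309). *Nsd2*, its paralog, moved upward and stood at 154, 160.3 and 164 CPM in the control libraries, 161, 143 and 137 with the inhibitor, 195, 229 and 179 with TGFβ and 185, 181 and 171 with both agents. TGFβ libraries were above control and combined above inhibitor. The rises were 1.26-fold (log2 change 0.34 ± 0.10 SE, adjusted p = 0.0146) and 1.22-fold (log2 change 0.29 ± 0.10 SE, adjusted p = 0.0359). The first call was lost on leaving out control replicate 1 (adjusted p = 0.0638), and with scaling by library size alone and with only the 2 groups compared in the fit (adjusted p = 0.0524 to 0.0663). The second was lost on leaving out any 1 of control replicates 1, 2 and 3, inhibitor replicates 2 and 3 and combined replicates 1 and 2 (adjusted p = 0.0504 to 0.104), and with scaling by library size alone and with no filter on low counts (adjusted p = 0.0527 to 0.0621). The *Nsd2* 3′ end overlaps *Nelfa* on the opposite strand.

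*Ash1l* stood at 370.2, 389 and 399.7 CPM in the control libraries, 410.5, 428 and 399 with the inhibitor, 333, 442 and 332 with TGFβ and 327, 364 and 322 with both agents. The combined libraries were below the inhibitor libraries, and the TGFβ libraries spread across the control range. The fall in inhibitor-treated cells was 1.22-fold (log2 change −0.29 ± 0.11 SE, adjusted p = 0.0444). This call for *Ash1l* was lost on leaving out any 1 of control replicates 1, 2 and 3, inhibitor replicates 1, 2 and 3 and combined replicates 1 and 3 (adjusted p = 0.0611 to 0.135), and with counts thinned to the shallowest library (adjusted p = 0.0637). *Ash1l* was called lower with TGFβ alone in limma voom with quality weights, and without TGFβ replicate 2 (adjusted p = 0.0278 to 0.0282). *Setd2*, *Nsd3* and *Smyd2* were not called in any comparison by edgeR, and neither were the H3K36 erasers *Kdm2a* and *Kdm2b*, with TGFβ log2 changes from −0.30 (*Smyd2*) to 0.23 (*Nsd3*). *Smyd2* was called lower with TGFβ alone with scaling by library size alone (adjusted p = 0.0354). *Smyd2* was called lower for the inhibitor against control with scaling by library size alone, in limma voom with quality weights and with only the 2 groups compared in the fit, and without TGFβ replicate 2 (adjusted p = 0.00874 to 0.0341). *Nsd3* was called higher with TGFβ alone without TGFβ replicate 3 (adjusted p = 0.0321). *Kdm2a* was called lower with TGFβ alone with scaling by library size alone, and without TGFβ replicate 2 (adjusted p = 0.0413 to 0.0479). *Dot1l*, the only H3K79 writer, was not called, with TGFβ log2 changes of 0.022 ± 0.14 (adjusted p = 0.915) and 0.046 ± 0.13 (adjusted p = 0.822). Of 6 DOT1L partners, *Aff1* rose by 0.62 ± 0.098 (adjusted p = 6.41e-05) and 0.52 ± 0.097 (adjusted p = 3.60e-04), and *Mllt6* fell with TGFβ alone (−0.52 ± 0.15, adjusted p = 0.011). The *Mllt6* call was lost with only the 2 groups compared in the fit (adjusted p = 0.0599).

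H4K20 is monomethylated by KMT5A around mitosis and then raised to higher states by KMT5B and KMT5C. *Kmt5b* stood at 72.4, 78.3 and 76.1 CPM in the control libraries, 97.2, 81.9 and 89.2 with the inhibitor, 59.0, 52.2 and 55.9 with TGFβ and 53.0, 57.5 and 63.4 with both agents. TGFβ was below control and combined below inhibitor in all libraries. The falls were 1.36-fold (log2 change −0.44 ± 0.11 SE, adjusted p = 0.00375) and 1.54-fold (log2 change −0.63 ± 0.11 SE, adjusted p = 1.49e-04). Its 3′ end overlaps *Gm16066* on the opposite strand. *Kmt5c* stood at 23.5, 25.8 and 23.9 CPM in the control libraries, 31.0, 32.7 and 31.2 with the inhibitor, 17.1, 7.44 and 16.1 with TGFβ and 19.7, 17.6 and 29.7 with both agents. TGFβ replicate 2 was the lowest library, and combined replicate 3 was above the control libraries. It fell 1.88-fold with TGFβ (log2 change −0.91 ± 0.26 SE, adjusted p = 0.0107), against −0.51 ± 0.23 (adjusted p = 0.106) in inhibitor-treated cells. *Kmt5c* was called lower in inhibitor-treated cells in limma voom with quality weights, with no filter on low counts and with only the 2 groups compared in the fit, and without any 1 of TGFβ replicate 2 and combined replicate 3 (adjusted p = 0.00738 to 0.0311). *Kmt5c* was called higher for combined against TGFβ in DESeq2 and with no filter on low counts, and without TGFβ replicate 1 (adjusted p = 4.87e-04 to 0.0396). *Kmt5c* was called higher for the inhibitor against control in limma voom with quality weights and with only the 2 groups compared in the fit (adjusted p = 0.0181 to 0.035). *Kmt5a* stood at 257, 250.3 and 237 CPM in the control libraries, 258, 226 and 238 with the inhibitor, 281, 274 and 253 with TGFβ and 272, 304 and 280.4 with both agents. Combined libraries were above the inhibitor libraries, a rise of 1.19-fold (log2 change 0.25 ± 0.091 SE, adjusted p = 0.0412; 0.12 ± 0.091, adjusted p = 0.334 with TGFβ alone). This call for *Kmt5a* was lost on leaving out any 1 of control replicates 1, 2 and 3, inhibitor replicates 2 and 3 and combined replicates 2 and 3 (adjusted p = 0.0575 to 0.144), and with scaling by library size alone and with no filter on low counts (adjusted p = 0.0859 to 0.0955). *Smyd5* was not called (0.28 ± 0.17, adjusted p = 0.204 with TGFβ).

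The *Kmt5c* window is shown because it holds the motif in a gene that fell (GRCm38.p6, 250 bases before to 50 after the start; capitals mark the match).
Kmt5c (chr7:4739877-4740176, plus strand): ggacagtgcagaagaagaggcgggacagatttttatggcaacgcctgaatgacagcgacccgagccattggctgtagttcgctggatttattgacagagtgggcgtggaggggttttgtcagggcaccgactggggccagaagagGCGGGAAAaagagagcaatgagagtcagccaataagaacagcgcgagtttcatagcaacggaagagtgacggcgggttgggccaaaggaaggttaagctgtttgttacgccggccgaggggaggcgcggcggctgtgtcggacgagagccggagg

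PRMT1 and CARM1 dimethylate histone arginines asymmetrically, and PRMT5 does so symmetrically. *Prmt5* stood at 51.6, 55.4 and 54.8 CPM in the control libraries, 59.1, 56.0 and 52.0 with the inhibitor, 68.6, 86.7 and 60.5 with TGFβ and 63.7, 76.0 and 68.9 with both agents. All TGFβ libraries were above control. The rise was 1.35-fold (log2 change 0.43 ± 0.13 SE, adjusted p = 0.0118), against 0.32 ± 0.13 (adjusted p = 0.0537) in inhibitor-treated cells. The call was lost on leaving out any 1 of control replicate 1 and TGFβ replicate 2 (adjusted p = 0.0529 to 0.0658), and with only the 2 groups compared in the fit (adjusted p = 0.0591). *Prmt5* was called higher in inhibitor-treated cells with DESeq2 size factors, in DESeq2, in limma voom with quality weights and with only the 2 groups compared in the fit, and without any 1 of TGFβ replicates 2 and 3 and combined replicate 1 (adjusted p = 0.00619 to 0.0486). *Carm1* was not called (0.17 ± 0.19, adjusted p = 0.514 with TGFβ). Of 7 other arginine methyltransferase genes, 1 rose and 2 fell with TGFβ, led by *Prmt6* (−0.64 ± 0.15, adjusted p = 0.00287), and 1 rose in inhibitor-treated cells, the PRMT5 partner *Wdr77* (0.42 ± 0.13, adjusted p = 0.017). The *Wdr77* call was lost on leaving out any 1 of inhibitor replicates 1 and 2 and combined replicate 2 (adjusted p = 0.0632 to 0.0776). The 3 calls with TGFβ became 1 without control replicate 3 or with only the 2 groups compared in the fit; 5 in limma voom with quality weights, and the 1 in inhibitor-treated cells 0 without any 1 of inhibitor replicates 1 and 2; 2 without TGFβ replicate 2, in limma voom with quality weights, with only the 2 groups compared in the fit or with counts thinned to the shallowest library. *Kdm6b*, the H3K27 eraser among the 49, was not called in any comparison by edgeR (−0.28 ± 0.17, adjusted p = 0.226 with TGFβ and −0.40 ± 0.17, adjusted p = 0.0743 in inhibitor-treated cells). *Kdm6b* was called lower with TGFβ alone in limma voom with quality weights, and without TGFβ replicate 2 (adjusted p = 0.00259 to 0.00339). *Kdm6b* was called lower in inhibitor-treated cells with scaling by library size alone, in limma voom with quality weights, with no filter on low counts and with only the 2 groups compared in the fit, and without any 1 of inhibitor replicate 3 and TGFβ replicates 2 and 3 (adjusted p = 0.00912 to 0.0491).

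**Figure D4:**
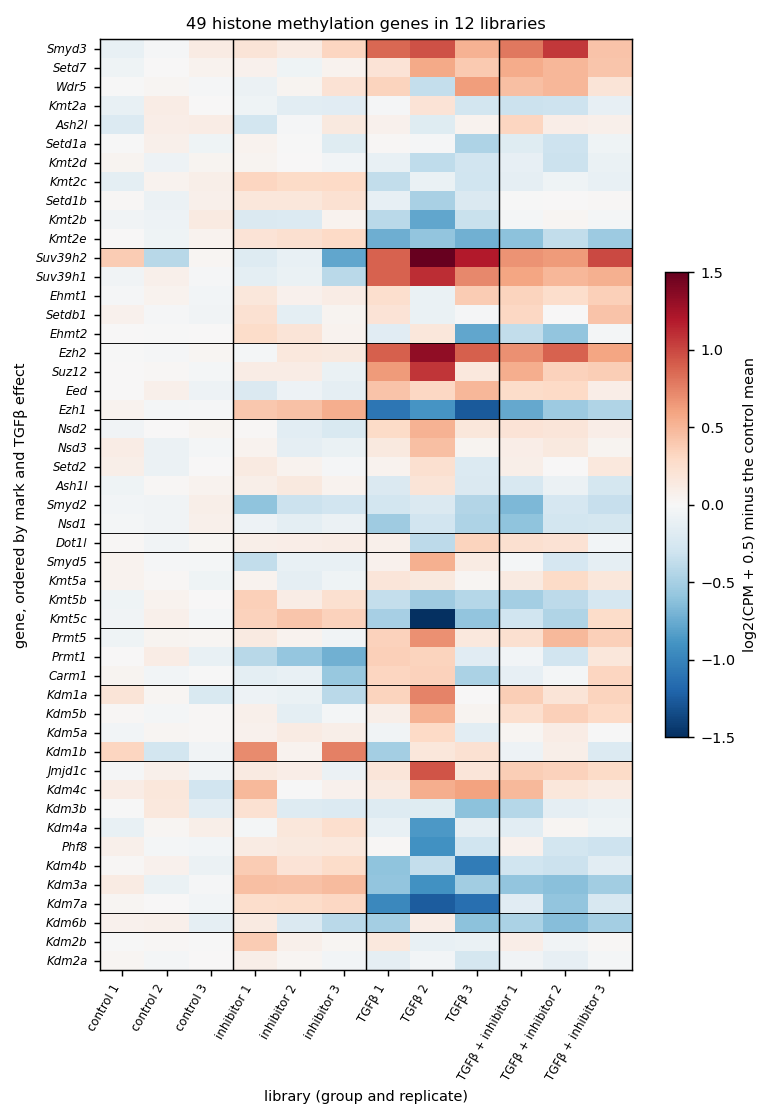
Heat map of the 49 genes (rows, by mark and TGFβ change) in the 12 libraries (columns): log2(CPM + 0.5) minus the mean of the 3 control libraries, on a colour scale from −1.5 (blue) to 1.5 (red); the values run from −1.65 to 1.61, so the most extreme cells are drawn at the end of the scale. *Ezh2*, *Suv39h1* and *Suv39h2* are red and *Ezh1*, *Kdm7a* and *Kmt2e* blue in all 3 TGFβ libraries.

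The inhibitor alone changed few of these genes: 3 of 49 were called against control, *Ezh1* and *Kdm3a* up and *Prmt1* down (6.12%; 8.27% of all tested genes, 2.47% up and 5.80% down). The median log2 change of the 49 was 0.051, with 0.0074 over all genes. *Ezh1* was 72.3 ± 3.93 CPM (SD, n = 3) with the inhibitor and 52.2 ± 1.61 CPM in control, 1.39-fold higher (log2 change 0.47 ± 0.12 SE, adjusted p = 0.0179). The *Ezh1* call was lost on leaving out any 1 of control replicates 1, 2 and 3 and inhibitor replicates 2 and 3 (adjusted p = 0.0567 to 0.0914), and with counts thinned to the shallowest library (adjusted p = 0.153). *Kdm3a* was 91.4 ± 1.24 CPM against 66.6 ± 5.18 CPM, 1.37-fold higher (log2 change 0.46 ± 0.11 SE, adjusted p = 0.0152). The *Kdm3a* call was lost on leaving out any 1 of control replicates 2 and 3 and inhibitor replicates 1, 2 and 3 (adjusted p = 0.0691 to 0.0958), and with counts thinned to the shallowest library (adjusted p = 0.0605). Limma voom with quality weights and the 2-group fit called *Kmt2e* and *Kmt2c* higher than control (adjusted p = 0.00116 to 0.00327). Both also called *Kdm7a* (adjusted p = 0.0196 to 0.0204), and the 2-group fit *Kmt5b* (adjusted p = 0.0286). Without TGFβ replicate 2, *Kmt2e* (adjusted p = 0.0278) and *Kmt2c* (adjusted p = 0.0105) were called higher. Without TGFβ replicate 3, *Kmt2c* was called too (adjusted p = 0.0433).

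*Prmt1*, the main asymmetric arginine methyltransferase, stood at 54.0, 58.0 and 49.8 CPM in the control libraries, 40.1, 35.7 and 32.4 with the inhibitor, 68.8, 67.7 and 47.8 with TGFβ and 52.2, 43.9 and 60.6 with both agents. Every inhibitor library was below every control library and every combined library, and TGFβ replicate 3 was below the control libraries. With the inhibitor it was 1.49-fold lower than in control (log2 change −0.58 ± 0.15 SE, adjusted p = 0.0199), and with both agents 1.45-fold higher than with the inhibitor (log2 change 0.53 ± 0.15 SE, adjusted p = 0.0085). The first call was lost on leaving out any 1 of control replicates 1 and 2 and inhibitor replicates 2 and 3 (adjusted p = 0.0643 to 0.1), and with counts thinned to the shallowest library (adjusted p = 0.0625). TGFβ against control gave 0.21 ± 0.15 (adjusted p = 0.275). None of the 3 calls against control held under all alternatives, and counts thinned to the shallowest library gave none. In that comparison the 49 had 6 calls without TGFβ replicate 2, 2 without inhibitor replicate 1, 1 without control replicate 1 or 3, and 0 without control replicate 2 or inhibitor replicate 2 or 3. Over all genes 15.7% were called without TGFβ replicate 2, and 4.25 to 4.91% without any 1 control or inhibitor replicate.

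Added to TGFβ, the inhibitor gave 3 calls among the 49, all upward: *Kdm7a*, *Kmt2b* and *Ezh1* (10.4% of all genes were called, 3.45% up and 6.97% down). These 3 genes had fallen with TGFβ against control; both comparisons use the same TGFβ libraries, so the opposite directions are not independent of each other. *Kdm7a* was 37.1 ± 5.66 CPM with both and 21.3 ± 2.15 CPM with TGFβ, 1.74-fold higher (log2 change 0.80 ± 0.13 SE, adjusted p = 8.51e-04), and this call held in all 20 alternatives. *Kmt2b* was 32.6 ± 0.780 CPM against 23.2 ± 3.80 CPM, 1.43-fold higher (log2 change 0.52 ± 0.14 SE, adjusted p = 0.0275). The *Kmt2b* call was lost on leaving out any 1 of TGFβ replicate 2 and combined replicates 1, 2 and 3 (adjusted p = 0.0623 to 0.0962), and with only the 2 groups compared in the fit and with counts thinned to the shallowest library (adjusted p = 0.129 to 0.204). *Ezh1* was 34.7 ± 3.88 CPM against 24.6 ± 3.28 CPM, 1.38-fold higher (log2 change 0.47 ± 0.13 SE, adjusted p = 0.0253). The *Ezh1* call was lost on leaving out any 1 of TGFβ replicate 1 and combined replicate 3 (adjusted p = 0.0676 to 0.0799), and with only the 2 groups compared in the fit and with counts thinned to the shallowest library (adjusted p = 0.129 to 0.202). Downward calls appeared under other settings: 3 up and 4 down without TGFβ replicate 3 (*Ezh2*, *Suv39h1*, *Suz12* and *Kmt2a* down), and 3 up and 2 down with scaling by library size alone (*Ezh2* and *Suv39h1* down). Without TGFβ replicate 1 there were 4 up and 1 down (*Ezh2*), in DESeq2 also 4 up and 1 down (*Suv39h1*), and without combined replicate 3 there was 1. Of the 20 replication and division markers, 9 fell in this comparison and 3 with the inhibitor against control, and none rose in either; their part in the values of *Ezh1*, *Ezh2* and *Suv39h1* was not tested. The 9 became 2 with only the 2 groups compared in the fit; 4 without combined replicate 3, and the 3 became 5 without TGFβ replicate 3, with DESeq2 size factors or with no filter on low counts; 6 with scaling by library size alone or in DESeq2; 9 without TGFβ replicate 2 or in limma voom with quality weights; 11 with only the 2 groups compared in the fit. *Ezh1* was the 1 member called in both inhibitor comparisons, which share no library; over the 49 genes their log2 changes had r = 0.569 and the same sign in 33.

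**Figure D5:**
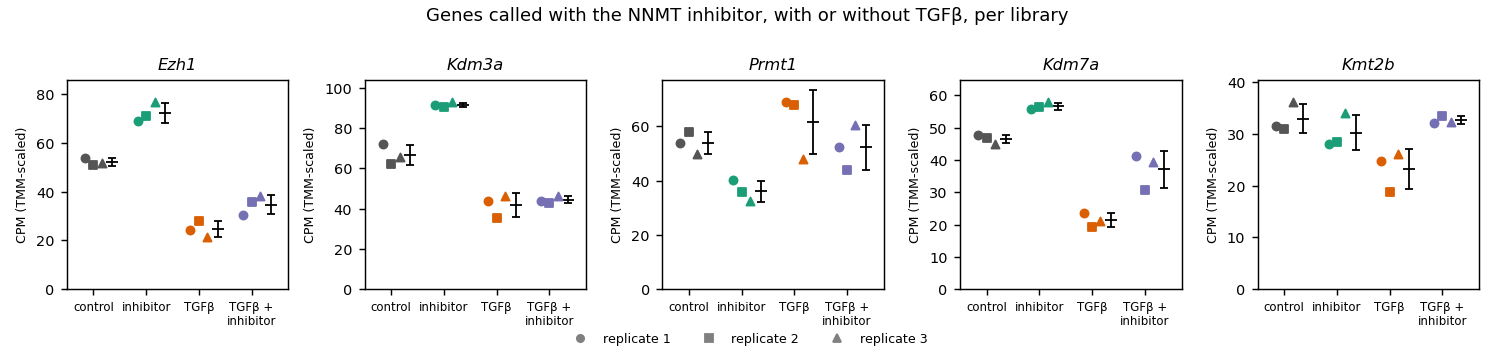
TMM-scaled CPM (y axis, from 0) of the 5 genes called with the inhibitor in cells without or with TGFβ, in each library, by group (x axis), with a marker per replicate and a bar for the mean ± SD (n = 3). *Ezh1* is higher with the inhibitor than without it in every library of both pairs of groups; *Prmt1* is lower in the inhibitor libraries than in control.

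Whether the inhibitor acted differently with TGFβ than without was tested as the interaction, and edgeR called 0 of the 49 (1.11% of all genes were called, 0.641% up and 0.471% down). At an unadjusted p below 0.05 there were 4: *Kmt2b* (0.64 ± 0.20, adjusted p = 0.165), *Kdm7a* (0.51 ± 0.18, adjusted p = 0.261), *Ezh2* (−0.43 ± 0.17, adjusted p = 0.326) and *Kdm3a* (−0.35 ± 0.16, adjusted p = 0.454). Without the 5 libraries whose *Ezh2* count is a multiple of 100, the *Ezh2* value was −0.27 ± 0.14 with an unadjusted p of 0.0682. DESeq2 and limma voom with quality weights also called 0, with 3 and 5 genes at an unadjusted p below 0.05. Over all genes these 2 methods called 1.96 and 3.56%. The share of all genes at the unadjusted threshold was not computed, so those counts cannot be read as particular to the 49. The 95% intervals extended to either side by 0.25 to 0.85 on the log2 scale (median 0.36).

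*Nnmt*, the inhibitor's target, stood at 27.7, 22.8 and 28.2 CPM in the control libraries, 15.3, 20.0 and 22.2 with the inhibitor, 29.1, 24.7 and 33.3 with TGFβ and 26.9, 27.2 and 23.6 with both agents. Inhibitor libraries were below control and below the combined libraries, whereas TGFβ overlapped control. It was called in inhibitor-treated cells with TGFβ (log2 change 0.44 ± 0.16 SE, adjusted p = 0.0396) and in no other comparison (0.12 ± 0.16, adjusted p = 0.609 for TGFβ against control, −0.45 ± 0.16, adjusted p = 0.0907 for the inhibitor against control and −0.14 ± 0.16, adjusted p = 0.643 for combined against TGFβ). This call for *Nnmt* was lost on leaving out any 1 of control replicates 1 and 3, inhibitor replicates 1 and 2 and combined replicates 1 and 2 (adjusted p = 0.0505 to 0.192), and with scaling by library size alone (adjusted p = 0.0703).

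The cycle that makes S-adenosylmethionine and clears its product S-adenosylhomocysteine was listed as 12 genes, 10 of them tested; *Bhmt* had no count. With TGFβ 1 rose and 1 fell, with the inhibitor 1 rose, and in inhibitor-treated cells 3 rose and 3 fell. *Ahcyl2*, a relative of the hydrolase, fell 2.29-fold with TGFβ (log2 change −1.20 ± 0.12 SE, adjusted p = 4.60e-07) and 3.08-fold in inhibitor-treated cells (log2 change −1.62 ± 0.12 SE, adjusted p = 4.16e-09), and was higher with the inhibitor than in control (0.52 ± 0.11, adjusted p = 0.00767). *Ahcy*, the hydrolase itself, rose 2.55-fold with TGFβ (log2 change 1.35 ± 0.31 SE, adjusted p = 0.00221) and 1.96-fold in inhibitor-treated cells (log2 change 0.97 ± 0.32 SE, adjusted p = 0.0233). Its transcript was scarce, with group means of 2.76 ± 0.56 CPM in control and 2.36 ± 0.15 with the inhibitor (SD, n = 3). With TGFβ the mean was 7.01 ± 2.23 CPM and with both agents 4.65 ± 1.07. The *Ahcy* call in inhibitor-treated cells was lost on leaving out any 1 of inhibitor replicates 1 and 2 and combined replicate 2 (adjusted p = 0.054 to 0.094), and with counts thinned to the shallowest library (adjusted p = 0.171). The 2 calls with TGFβ became 4 without TGFβ replicate 2, with scaling by library size alone or in limma voom with quality weights; the 6 in inhibitor-treated cells became 3 without any 1 of inhibitor replicates 1 and 2 and combined replicate 2 or with counts thinned to the shallowest library.

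In all, edgeR called 27 of the 49 genes in at least 1 comparison and 22 in none; of the 22, 11 were called under at least 1 alternative and 11 under no alternative. Among the 22, log2 changes with TGFβ ran from −0.37 to 0.43 with SEs of 0.089 to 0.31, and the lowest adjusted p was 0.0609. With the inhibitor alone they ran from −0.40 to 0.57 (lowest adjusted p 0.0856). By mean level the scarcest of the 22 was *Kdm1b*, with group means of 4.00 to 6.32 CPM, and the most abundant *Kdm5a*, with 263 to 280.4 CPM. In the annotation 33 of the 49 overlap another gene, 11 of them a gene on the same strand, and 14 have a 3′ end within another gene, of which *Setd1a* (with *Gm49388*) on the same strand; reads there may be shared.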

How the data were processed

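Gene counts of the 12 QuantSeq 3′ libraries were used as deposited: whole-number counts per mouse Ensembl gene, made by the authors with STAR and HTSeq per the submitters' processing notes. Their versions and the counting strand are not given in the sources used here, and the build named there is GRCh38 although the gene IDs are mouse. Rows naming no gene were left out (no feature, 21.1 to 26.8% of a library's reads; ambiguous, 0.613 to 0.802%). Symbols were matched for 55141 of 55487 IDs. Genes passing filterByExpr were scaled by TMM and fitted in 1 model of 4 group means with edgeR 4.0.16 (R 4.3.3) by the quasi-likelihood F-test; p-values were Benjamini-Hochberg adjusted over all 13581 genes, with a threshold of 0.05. Levels are TMM-scaled CPM. DESeq2 1.42.0, limma 3.58.1 and other settings were alternatives. The code was tested on simulated data in which few genes changed. There 1.5-fold changes were recovered in 17.9 to 31.3% of genes in the 4 group comparisons and in 5.97% for the interaction. A gene not called may therefore still have changed. Members described by library were those called in at least 1 comparison; from each other list up to 4 called genes with the smallest adjusted p. Members and lists were chosen with earlier results of these data known. Promoter windows are from RefSeq (GRCm38.p6). The depth behind each level, and the replicates being of unstated origin, limit precision. Some genes of the other lists are not reported here by name.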

Additional observations from a re-analysis of the deposited data

How the results depend on the processing

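Across 20 alternatives, 27 of the 47 calls of a member in a comparison were kept in every one, 20 were lost in at least 1 and 0 reversed. Alternatives also added calls: 33 further pairs of a gene and a comparison passed in at least 1 of them (12 for TGFβ against control, 6 for each inhibitor comparison and 9 for combined against inhibitor). With 1 library left out, the members called numbered 18 to 24 (TGFβ against control), 0 to 6 (inhibitor against control), 1 to 7 (combined against TGFβ), 15 to 28 (combined against inhibitor) and 0 to 0 (interaction). In the same order, the share of all genes called was 29.0 to 37.3%, 4.25 to 15.7%, 5.46 to 14.0%, 29.4 to 44.0% and 0.467 to 2.87%. Inhibitor against control gave 8 in limma voom with quality weights, 9 with only the 2 groups fitted and 0 with thinned counts, against 3; combined against TGFβ gave 5 with library size scaling, 5 in DESeq2, and 1 with only the 2 groups fitted or with thinned counts, against 3. The causes were not tested. Combined against inhibitor gave 28 without TGFβ replicate 2. Replicate numbers did not pair the libraries: same-numbered libraries correlated at -0.0847 to 0.202, with 1 of 18 pairs above 0.1, although 8 of 12 libraries correlated best with their own number. With the replicate block the counts were 22, 3, 3, 21 and 0, with 35.9, 7.61, 9.62, 36.0 and 0.876% of all genes called. The block ended the call of *Ehmt2* in combined against inhibitor (adjusted p = 0.0726). It added *Kdm1a* for TGFβ against control (adjusted p = 0.0368). In combined against inhibitor it added *Suz12* (adjusted p = 0.0393) and *Prmt5* (adjusted p = 0.0478). Leaving out the 5 libraries with round *Ezh2* counts, an alternative chosen after seeing the data, kept both *Ezh2* calls. Depth limits low genes such as *Suv39h2* and *Ahcy*: 3 counts equal 0.266 to 1.15 CPM.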

Other observations

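The 49 genes varied most among the TGFβ libraries. The median coefficient of variation of a gene within a group was 4.84% in control, 7.48% with the inhibitor, 16.5% with TGFβ and 7.99% in the combined group. Within the TGFβ group, replicate 2 was the library farthest from the group's median in 31 of the 49 genes, replicate 3 in 12 and replicate 1 in 6. Replicate 2 was also the deepest library and replicate 3 the shallowest. The part of depth in this spread was not tested.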
